A study of Homo sapiens with 8 samples.

Results

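The BCL2 family genes described here are 10 protein-coding genes of the 20052 in the gene table. They were chosen as a fixed list, with earlier results of these data known. The list holds 3 anti-death members (*BCL2*, *BCL2L1* and *MCL1*) and 7 pro-death members, which are the effectors *BAX* and *BAK1* and the BH3-only genes *BID*, *BBC3*, *PMAIP1*, *BCL2L11* and *BIK*. Acetylation of histone H3 at lysine 27 (H3K27ac), a mark of active promoters and enhancers, was measured by ChIP-sequencing in 2 lines made from MIA PaCa-2, an established human pancreatic carcinoma line. In MP2_HDAC1_OE the endogenous *HDAC1* gene was activated by CRISPRa, in which a guide RNA brings an activator to a promoter. MP2_NTC, the control, carries a non-targeting guide. Each line had 2 H3K27ac samples and 2 controls without antibody, and the authors deposited 1 peak list per line that pools both H3K27ac samples. The lists hold 25045 peaks for MP2_HDAC1_OE and 22569 for MP2_NTC, with no read counts, so the depth is unknown. With no replicate values, no difference below has an error or a test across samples. A difference caused by *HDAC1* activation and any other difference between the stable lines cannot be told apart.

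Proteins of this family decide whether the outer mitochondrial membrane stays intact. The anti-death proteins BCL2, BCL-XL (from *BCL2L1*) and MCL1 bind and hold back the others, BAX and BAK form the pores that release cytochrome c, and the BH3-only proteins either activate BAX and BAK or occupy the anti-death proteins. HDAC1 removes acetyl groups from histones and works within repressor complexes. BCL-XL and MCL1 are known as survival factors of pancreatic cancer cells, and inhibitors of HDACs and mimics of BH3 proteins are drug classes that act on cell death.

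A region is a stretch of overlapping peaks from either list that share at least 1 bp. It is shared if both lines have a peak in it and unique if the peaks come from a single line. Unique therefore means that no peak of the other line passed in its list, not that the mark was absent there. The window of a gene is the gene and 20 kb either side, and its promoter window runs from 2 kb outside to 1 kb inside a gene start. Where a gene has several starts, the windows at all of them are counted together. For a gene without a start in the promoter table used here, the windows at both gene ends were used. The signal is the value that the peak caller gave each peak. Its rank is the percent of peaks in the same list with a lower signal, used because the scaling between the lists is unknown. For shared regions the log2 ratio of the strongest MP2_HDAC1_OE peak over the strongest MP2_NTC peak was centred on the median of all 9477 shared regions, so that 0 is the typical shared region. All coordinates are of GRCh38. The gene table has no exons, so positions are given only relative to gene bodies and starts.

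Starts of the members differed in H3K27ac, and promoters with no region, a shared region or a region of a single line are shown here. They are from RefSeq (GRCh38.p14), 5′ to 3′ on the strand of the gene, from 250 bases before the start to 50 bases after it. Of the 10 members, 8 had a promoter in the table, and *MCL1* and *BIK* did not. Capitals mark matches on either strand to GGGCGG (the core of an Sp1 site), CCAAT (bound by NF-Y), TATAAA (the TATA box) or TGACTCA (an AP-1 site), none of which overlapped another in the promoters shown. *BCL2* (chr18:63319720-63320019, minus strand) and *PMAIP1* (chr18:59899746-59900045, plus strand) had no region of either line in their windows. *BAX* (chr19:48954625-48954924, plus strand), *BCL2L11* (chr2:111120664-111120963, plus strand) and the upstream start of *BCL2L1* (chr20:31723914-31724213, minus strand) had a shared region. The promoter window of *BCL2L1* also held a region unique to MP2_HDAC1_OE. The region of *BAX* began 55 bp inside the start, so no peak of either line covered the *BAX* bases shown. *BAK1* (chr6:33580227-33580526, minus strand) and *BBC3* (chr19:47232618-47232917, minus strand) had a region of a single line.
BCL2: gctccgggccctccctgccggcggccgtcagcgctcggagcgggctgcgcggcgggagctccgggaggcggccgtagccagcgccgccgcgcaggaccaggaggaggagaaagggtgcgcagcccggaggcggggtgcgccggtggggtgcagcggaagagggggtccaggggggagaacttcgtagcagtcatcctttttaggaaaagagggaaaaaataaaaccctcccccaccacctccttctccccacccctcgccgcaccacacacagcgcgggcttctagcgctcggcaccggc
PMAIP1: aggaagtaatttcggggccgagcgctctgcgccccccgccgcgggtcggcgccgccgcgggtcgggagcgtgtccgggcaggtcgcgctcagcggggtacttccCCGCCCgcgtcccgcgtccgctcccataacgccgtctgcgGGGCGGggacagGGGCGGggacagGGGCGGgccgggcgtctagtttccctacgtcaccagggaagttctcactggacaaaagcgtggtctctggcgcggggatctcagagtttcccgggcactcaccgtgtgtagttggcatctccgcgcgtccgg
BAX: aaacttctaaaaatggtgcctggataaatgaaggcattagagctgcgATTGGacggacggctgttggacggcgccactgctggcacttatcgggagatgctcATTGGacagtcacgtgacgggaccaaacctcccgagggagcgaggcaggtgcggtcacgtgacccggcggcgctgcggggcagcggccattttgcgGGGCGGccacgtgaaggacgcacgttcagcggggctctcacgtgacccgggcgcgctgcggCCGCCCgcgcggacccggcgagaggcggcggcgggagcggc
BCL2L11: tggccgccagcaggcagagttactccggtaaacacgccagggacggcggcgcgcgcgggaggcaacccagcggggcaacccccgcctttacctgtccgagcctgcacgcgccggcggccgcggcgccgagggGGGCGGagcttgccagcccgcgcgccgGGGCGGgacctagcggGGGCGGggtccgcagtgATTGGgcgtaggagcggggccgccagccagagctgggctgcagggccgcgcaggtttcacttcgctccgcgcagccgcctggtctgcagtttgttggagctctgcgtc
BCL2L1: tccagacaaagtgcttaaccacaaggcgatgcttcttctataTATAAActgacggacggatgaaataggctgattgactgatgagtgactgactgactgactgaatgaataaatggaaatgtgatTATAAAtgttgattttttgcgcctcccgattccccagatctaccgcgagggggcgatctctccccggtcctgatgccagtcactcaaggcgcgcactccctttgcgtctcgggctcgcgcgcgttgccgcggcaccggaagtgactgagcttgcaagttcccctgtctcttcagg
BAK1: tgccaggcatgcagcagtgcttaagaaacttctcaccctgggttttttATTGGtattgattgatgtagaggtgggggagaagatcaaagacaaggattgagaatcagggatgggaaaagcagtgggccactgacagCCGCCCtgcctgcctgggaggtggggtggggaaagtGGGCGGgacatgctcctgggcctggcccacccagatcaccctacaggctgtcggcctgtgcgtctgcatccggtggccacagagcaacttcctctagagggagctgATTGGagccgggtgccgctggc
BBC3: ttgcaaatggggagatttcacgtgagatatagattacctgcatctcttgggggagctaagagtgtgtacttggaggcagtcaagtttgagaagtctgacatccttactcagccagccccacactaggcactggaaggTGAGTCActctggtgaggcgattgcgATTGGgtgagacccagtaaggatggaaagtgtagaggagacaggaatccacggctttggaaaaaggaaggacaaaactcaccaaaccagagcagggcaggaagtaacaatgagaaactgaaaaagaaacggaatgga

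The promoters of the members without a region in their windows were not poor in CpG. The *BCL2* promoter had a GC content of 70.7% and a ratio of observed to expected CpG of 0.829, and *PMAIP1* had 71.3% and 1.11. Over all 22198 starts of coding genes in the table, the medians were 62.3% and 0.737. With GC of at least 50% and a CpG ratio of at least 0.6 counted as CpG-rich, 60% of coding starts were CpG-rich. A region lay in the promoter window of 67.5% of these and of 18.8% of the other starts. *BAX* (67.3% and 1.15), *BCL2L11* (74.7% and 0.94) and the shown *BCL2L1* start (52% and 0.986) were also CpG-rich. The shown promoters of *BAK1* (58.7% and 0.282) and *BBC3* (48% and 0.311), where only a single line had a region, were not. The CpG-rich *BCL2L1* start also had a region unique to MP2_HDAC1_OE in its promoter window, beside the shared one.

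GGGCGG was found in 56.3% of all coding starts. Among the shown promoters, *PMAIP1* held 4 matches, *BCL2L11* 3, and *BAX* and *BAK1* 2 each, and the promoters of *BID*, not shown, held up to 4. TGACTCA was found in 4.01% of coding starts, and among the 8 members with a promoter in the table only in *BBC3*, 113 bases before the start. CCAAT (34.7% of coding starts) matched in *BAX*, *BAK1*, *BBC3* and *BCL2L11*. TATAAA (9.47%) matched 2 times in the shown *BCL2L1* promoter, 208 and 125 bases before the start. A match is a match of letters in this window and was not tested for binding.

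Across the members, 8 of 10 had at least 1 region in their windows, against 63.1% of all coding genes. The windows of all 10 together held 30 regions. MP2_HDAC1_OE alone had peaks in 7 of them (28.6% of all 18678 regions), MP2_NTC alone in 6 (20.7% of all) and both lines in 17. The shared part, 56.7%, compares with 50.7% of all regions. A shared region lay in the windows of 8 members (50.9% of all coding genes), one unique to MP2_HDAC1_OE in the windows of 3 (26.3% of all coding genes) and one unique to MP2_NTC in the windows of 4 (23.4% of all coding genes). The members with an MP2_HDAC1_OE-unique region were *BCL2L1*, *MCL1* and *BBC3*, and those with an MP2_NTC-unique region were *BCL2L1*, *MCL1*, *BAK1* and *BID*, so that 5 of 10 had a unique region of either line (39% of all coding genes). In the promoter window, 7 members had a region (48.6% of all coding genes) and 5 a shared one (35.8%). A region unique to MP2_HDAC1_OE lay in the promoter window of *BCL2L1* and *BBC3* (2 of 10, against 11.7% of all coding genes), and one unique to MP2_NTC in that of *MCL1* and *BAK1* (2 of 10, against 10.1%). A unique region of either line in the promoter window was thus found for 4 of 10 members, against 20% of all coding genes. With 10 genes, each of these counts moves by 10 percentage points with a single gene.

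**Figure D1:**
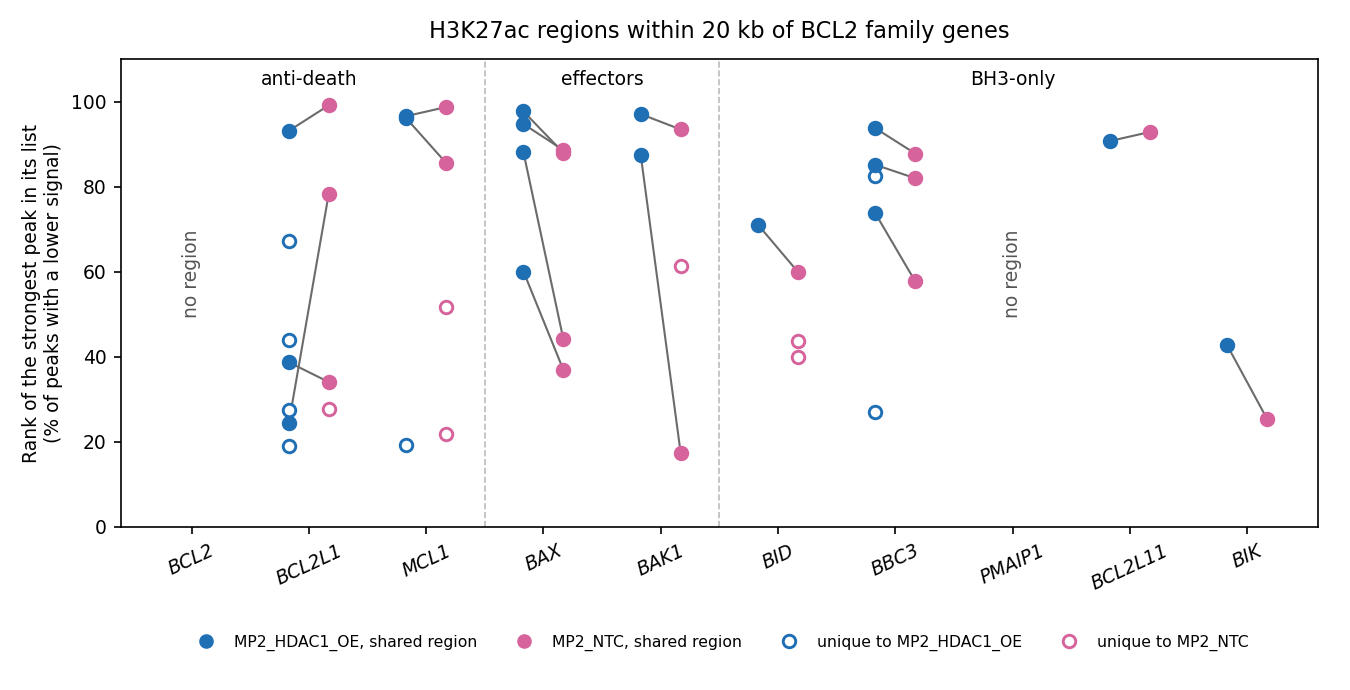
Rank of the strongest H3K27ac peak (percent of peaks of the same list with a lower signal) for every region within 20 kb of each gene. Filled points joined by a line are shared regions and open points are unique to a line, with MP2_HDAC1_OE in blue and MP2_NTC in pink. *BCL2* and *PMAIP1* have no region. All lines fall from MP2_HDAC1_OE to MP2_NTC at *BAX*, *BAK1*, *BID*, *BBC3* and *BIK*. They go both ways at *BCL2L1* and *MCL1*, and the line at *BCL2L11* rises.

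*BCL2*, whose protein is the founding anti-death member, had no peak of either line in the gene or within 20 kb (gene at chr18:63123346-63320090). The nearest region to its start lay 46.7 kb away at chr18:63366503-63367594. It was shared, with signals of 84.1 in MP2_HDAC1_OE and 87.5 in MP2_NTC, and overlapped *KDSR*, a gene of sphingolipid synthesis. *PMAIP1*, which encodes the BH3-only protein NOXA that binds MCL1, was also without a peak (gene at chr18:59899996-59904305). Its nearest region was 541 kb from the start, at *LMAN1* (chr18:59358767-59359224), with signals of 64.1 in MP2_HDAC1_OE and 101 in MP2_NTC. Over 22131 coding starts, the median distance to a region was 3671 bp, 35.4% were over 40 kb away and 6.22% were over 500 kb away. Both genes are on chromosome 18, where 154 of 270 coding genes (57.0%) had a region in their windows. These values say that no peak passed in either list, not that the genes are silent.

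*BCL2L1* (chr20:31664452-31723963, minus strand), which encodes BCL-XL, had 8 regions, with 4 unique to MP2_HDAC1_OE, 1 unique to MP2_NTC and 3 shared. Its window of 99.5 kb is longer than the median of 64.1 kb over coding genes. Per 100 kb it held 8.04 regions, fewer than *MCL1* (11.1), *BBC3* (9.61) and *BAX* (8.52), against 1.52 over the windows of all coding genes. At the start, a shared region (chr20:31722888-31724228) had a signal of 89.6 in MP2_HDAC1_OE and 142 in MP2_NTC. The ranks were 93.1 and 99.1, and the centred log2 ratio was -0.61, with 11.4% of all shared regions lower. The mark was thus among the strongest peaks of both lists, and relatively weaker in MP2_HDAC1_OE.

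The called peaks at the *BCL2L1* start also covered different bases. Peaks of MP2_HDAC1_OE covered all 300 bases of the promoter printed above, and peaks of MP2_NTC covered 0. This cover came from a weak MP2_HDAC1_OE peak (chr20:31723409-31724228) with a signal of 34.6 and a rank of 26.8. Its width of 820 bp is the median of both lists, so the cover is that of a called interval and does not measure the extent of the mark. At the start 1.1 kb further into the gene (31722868), MP2_HDAC1_OE peaks covered 231 of 300 bases and MP2_NTC peaks 102. A further region unique to MP2_HDAC1_OE (chr20:31725074-31725893) lay 1111 bp outside the upstream start, with a signal of 35.0 and a rank of 27.4. Only 845 bp separated it from the shared region.

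Within the *BCL2L1* gene body, a shared region 8790 bp from the nearest start (chr20:31712282-31714078) had a signal of 32.8 in MP2_HDAC1_OE and 71.4 in MP2_NTC. The ranks were 24.5 and 78.4, and the log2 ratio of -1.06 was the lowest among the members, with 2.93% of all shared regions lower. The strongest peaks of the lines in it had summits 716 bp apart. These are summits of called peaks, 1 of MP2_HDAC1_OE and 3 of MP2_NTC, and do not measure where the mark itself was strongest. Over all shared regions the median distance between these summits was 69 bp. The other regions in the body were unique to MP2_HDAC1_OE, with a signal of 56.6 and a rank of 67.3 (chr20:31698619-31699438), of 43.5 and 44.0 (chr20:31720726-31721545) and of 27.8 and 19.0 (chr20:31667423-31669199). A region unique to MP2_NTC past the end of the gene (chr20:31662106-31662925) had a signal of 37.5 and a rank of 27.6. The remaining shared region (chr20:31738385-31740949) overlapped *TPX2*, a gene of spindle assembly, and had signals of 40.9 in MP2_HDAC1_OE and 40.8 in MP2_NTC, with a log2 ratio of 0.06 that became -1.11 for summed peaks.

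*MCL1*, a short-lived anti-death protein's gene (chr1:150574558-150579610), had 1 region unique to MP2_HDAC1_OE, 2 unique to MP2_NTC and 2 shared. The shared region over the high-coordinate end of the gene (chr1:150578751-150579664) had a signal of 99.8 in MP2_HDAC1_OE and 81.4 in MP2_NTC. The ranks were 96.1 and 85.6 and the log2 ratio was 0.35, opposite in sign to the ratio at the *BCL2L1* start. The *MCL1* ratio was smaller under other readings, at 0.11 for summed peaks and 0.03 for the pair of peaks with the largest overlap. Next to this shared region, 218 bp away, lay a region unique to MP2_NTC (chr1:150579883-150580966) with a signal of 50.3 and a rank of 51.7. As no start of *MCL1* was in the promoter table, both of its ends were used for the promoter window.

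The other regions in the *MCL1* window lay nearest to *ADAMTSL4*, which encodes an extracellular matrix protein. Among them was the strongest region of the window (chr1:150561447-150562871, shared), with signals of 102 in MP2_HDAC1_OE and 133 in MP2_NTC, ranks of 96.6 and 98.7 and a log2 ratio of -0.32. On either side of it were a region unique to MP2_HDAC1_OE (chr1:150560248-150561067, signal 28.0, rank 19.3) and a region unique to MP2_NTC (chr1:150563375-150564194, signal 33.1, rank 21.8). Both had ranks below the median of their class over the whole list, which was 41.6 for MP2_HDAC1_OE-unique and 39.1 for MP2_NTC-unique regions.

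**Figure D2:**
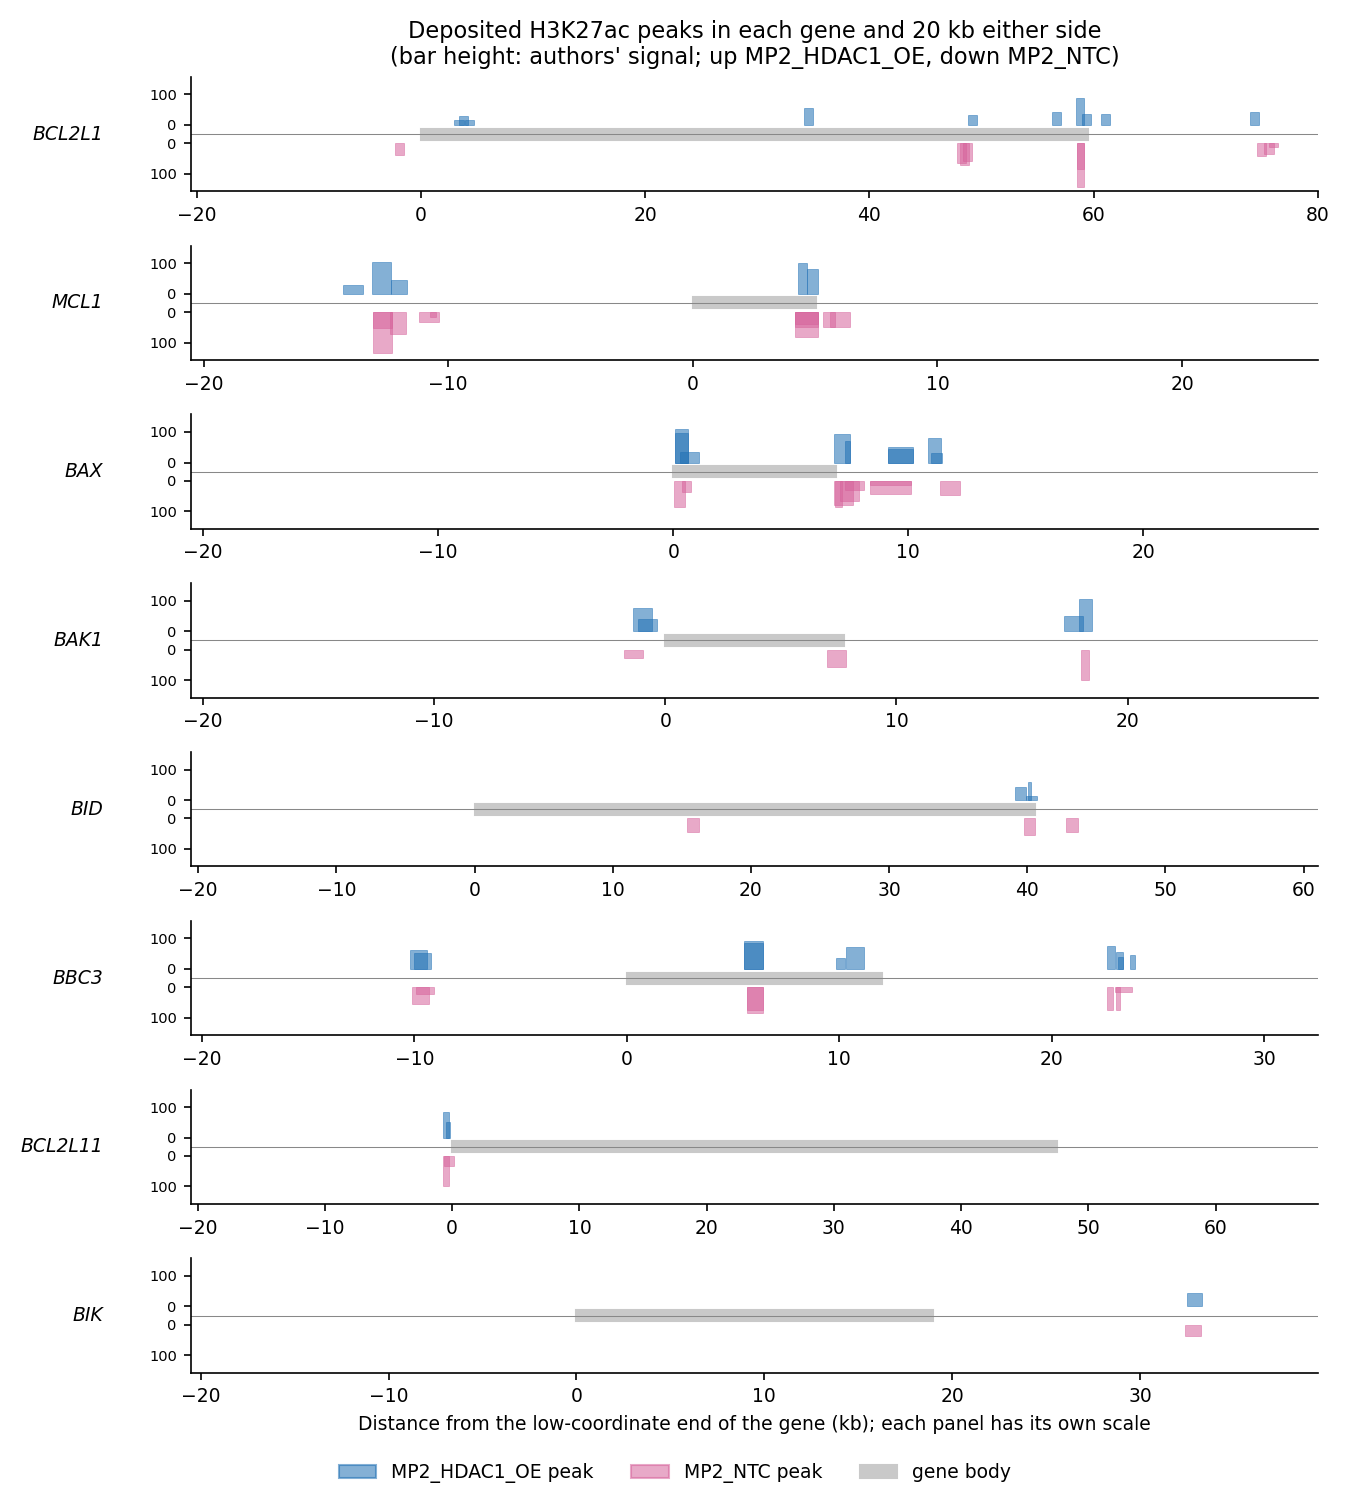
Deposited H3K27ac peaks in the windows of the 8 members with a region, as distance in kb from the low-coordinate end of each gene (grey bar). Bar height is the authors' signal, upwards for MP2_HDAC1_OE and downwards for MP2_NTC, and each panel has its own horizontal scale. At *BAK1* a peak of MP2_NTC alone lies over the high-coordinate end, where the gene starts, and at *BBC3* peaks of MP2_HDAC1_OE alone lie inside that end.

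The effectors had 7 regions, of which 6 were shared, 1 was unique to MP2_NTC and 0 were unique to MP2_HDAC1_OE. *BAX* (chr19:48954875-48961798, plus strand) had 4 regions, all shared. The region 55 bp inside its start (chr19:48954930-48955976) had a signal of 109 in MP2_HDAC1_OE and 85.7 in MP2_NTC, ranks of 97.7 and 88.0, and a log2 ratio of 0.40. Its strongest peaks had summits 2 bp apart, so the strongest called peaks of both lines lay at the same place, ranked higher in MP2_HDAC1_OE.

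The region over the end of *BAX* (chr19:48961709-48962988) had a signal of 94.0 in MP2_HDAC1_OE and 87.0 in MP2_NTC and a log2 ratio of 0.17. Past this end were a region with signals of 51.9 and 42.2 (chr19:48963258-48965056, log2 ratio 0.35) and a region with signals of 79.1 and 46.1 (chr19:48965711-48967058, log2 ratio 0.84). The gene end nearest to these last regions was that of *FTL*, the ferritin light chain gene, and the latter also lay near *GYS1*, a glycogen synthase gene. Summits of the strongest peaks in the latter were 724 bp apart. All 4 ratios of the strongest peaks were above 0, and the signs of 2 depended on the reading. The ratio of 0.84 near *FTL* became -0.57 for the pair of peaks with the largest overlap, and the ratio of 0.17 at the end of *BAX* became -0.62 for summed peaks, while the ratio at the start was 0.40 for that pair and 1.02 for summed peaks.

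*BAK1* (chr6:33572552-33580276, minus strand) had a peak of MP2_NTC alone over its start. This region (chr6:33579564-33580383) had a signal of 56.3 and a rank of 61.3, and covered 157 of the 300 promoter bases shown above, where MP2_HDAC1_OE covered 0. At the other end, 346 bp past the gene, the order was opposite. There, a shared region (chr6:33570770-33572206) had a signal of 77.8 in MP2_HDAC1_OE and 28.7 in MP2_NTC, with ranks of 87.4 and 17.4. Its log2 ratio of 1.50 was the highest of the members, with 99.1% of all shared regions lower, and the summits were 368 bp apart. The third region (chr6:33589816-33591006), 9540 bp outside the start, had signals of 105 in MP2_HDAC1_OE and 99.4 in MP2_NTC, a log2 ratio of 0.13 and summits 10 bp apart. It lay 790 bp from the pseudogene *GGNBP1*.

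The BH3-only genes had 10 regions, with 2 unique to MP2_HDAC1_OE, 2 unique to MP2_NTC and 6 shared. *BID* encodes the protein that is cut by caspase-8 and links death receptors to mitochondria (chr22:17734138-17774665, minus strand). A shared region spanned its 5 starts (chr22:17773231-17774851), with a signal of 59.4 in MP2_HDAC1_OE and 55.3 in MP2_NTC, ranks of 71.0 and 59.9 and a log2 ratio of 0.16. The direction here is not settled, as the ratio was 1.14 for summed peaks and -1.84 for the pair of peaks with the largest overlap, whose MP2_HDAC1_OE peak had a signal of 14.8. Both unique regions of *BID* were of MP2_NTC. One lay in the gene body (chr22:17749531-17750350, signal 45.9, rank 43.6) and one 2299 bp outside the starts over the non-coding gene *LINC00528* (chr22:17776964-17777783, signal 43.9, rank 39.9).

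*BBC3* encodes PUMA, a BH3-only protein that binds the anti-death members (chr19:47220824-47232860, minus strand). Both unique regions in its window were of MP2_HDAC1_OE. The stronger (chr19:47231150-47231969) lay 698 bp inside the start at 47232667, within the promoter window, with a signal of 70.9 and a rank of 82.5, which is above the median of 41.6 for regions unique to MP2_HDAC1_OE. The weaker (chr19:47230687-47231109) had a signal of 34.7. Neither line had a peak over the 300 bases of the *BBC3* promoter shown above.

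The shared regions around *BBC3* had ratios of the strongest peaks close to 0. The one in the gene body (chr19:47226345-47227219), over the microRNA gene *MIR3190*, had signals of 91.2 in MP2_HDAC1_OE and 85.4 in MP2_NTC and a log2 ratio of 0.15. One outside the start (chr19:47243437-47244771) had signals of 74.3 and 75.9 and a ratio of 0.03. One at *SAE1*, a gene of the SUMO pathway (chr19:47210610-47211737), had signals of 61.6 and 53.9 and a ratio of 0.25. For the pair of peaks with the largest overlap, the ratio outside the start became 1.79 and that at *SAE1* became -0.02.

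*BCL2L11* encodes BIM, which binds all anti-death members (chr2:111120914-111168445, plus strand). It had a single region, shared and over its start (chr2:111120163-111121087), with a signal of 84.0 in MP2_HDAC1_OE and 97.6 in MP2_NTC and ranks of 90.7 and 92.8. Its log2 ratio of -0.16 was the only one below 0 among the pro-death members, and was 0.11 for summed peaks. Peaks of MP2_NTC covered all 300 bases of the promoter shown above and peaks of MP2_HDAC1_OE covered 73. The full cover came from a single weak MP2_NTC peak (signal 33.6, rank 22.3) of the common width of 820 bp, and the summits of the strongest peaks were 34 bp apart. An end of *ACOXL* also lay within 2 kb of this region. *BIK*, a BH3-only gene (chr22:43110750-43129712), had no region in the gene. Its window held a shared region 13.4 kb past the gene (chr22:43143157-43144040) that overlapped *MCAT*, a gene of mitochondrial fatty acid synthesis, with signals of 42.8 in MP2_HDAC1_OE and 36.0 in MP2_NTC and a ratio of 0.31.

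The anti-death and pro-death windows held different mixes of classes, and the difference was not tested. The 3 anti-death windows (381 kb) held 13 regions, with 5 unique to MP2_HDAC1_OE, 3 unique to MP2_NTC and 5 shared, so 38.5% were shared. The 7 pro-death windows (418 kb) held 17 regions, with 2 unique to MP2_HDAC1_OE, 3 unique to MP2_NTC and 12 shared, so 70.6% were shared. Over all regions 50.7% were shared, and the roles thus lay on either side of that value. The density was 3.41 regions per 100 kb in the anti-death and 4.07 in the pro-death windows, against 1.52 over the windows of all coding genes. *BCL2L1* gave 8 of the 13 anti-death regions (3 shared) and *MCL1* gave 5 (2 shared), so the anti-death side of this contrast rests on 2 genes.

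At shared regions the ratios also lay apart. The anti-death members had a median log2 ratio of -0.32 (from -1.06 to 0.35, 5 regions), with 2 of 5 above 0. *BCL2L1* gave 3 of these 5 regions, *BCL2* gave 0, and the region over the end of *MCL1* had the highest ratio, 0.35. The pro-death members had a median of 0.21 (from -0.16 to 1.50, 12 regions), with 11 of 12 above 0. These 12 regions came from 6 genes, with 4 at *BAX* and 3 at *BBC3*, so they are not independent. Among all shared regions 50% are above 0 because of the centring. The central 90% ran from -0.89 to 0.89 and the central 50% from -0.33 to 0.33. Most pro-death ratios lay within that central 50%. More than 2-fold higher in MP2_HDAC1_OE was 1 of the members' 17 shared regions (at *BAK1*), against 3.66% of all shared regions, and more than 2-fold higher in MP2_NTC was 1 of 17 (at *BCL2L1*), against 3.52%. These calls and signs depend on the peaks read. For the pair of peaks with the largest overlap, 8 of the 12 pro-death and 2 of the 5 anti-death ratios were above 0. The *BCL2L1* region was then at -0.73 and no longer past 2-fold, *BID* passed it towards MP2_NTC (-1.84), and *BAX* (1.73) and *BBC3* (1.79) passed it towards MP2_HDAC1_OE beside *BAK1* (1.50). The *BAX* value rests on a choice among tied peaks and was 0.35 with the strongest of them. For summed peaks, 4 pro-death regions were past 2-fold towards MP2_HDAC1_OE and 2 anti-death regions, both at *BCL2L1*, towards MP2_NTC. Of the 17 ratios, 11 kept their sign under all these readings.

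**Figure D3:**
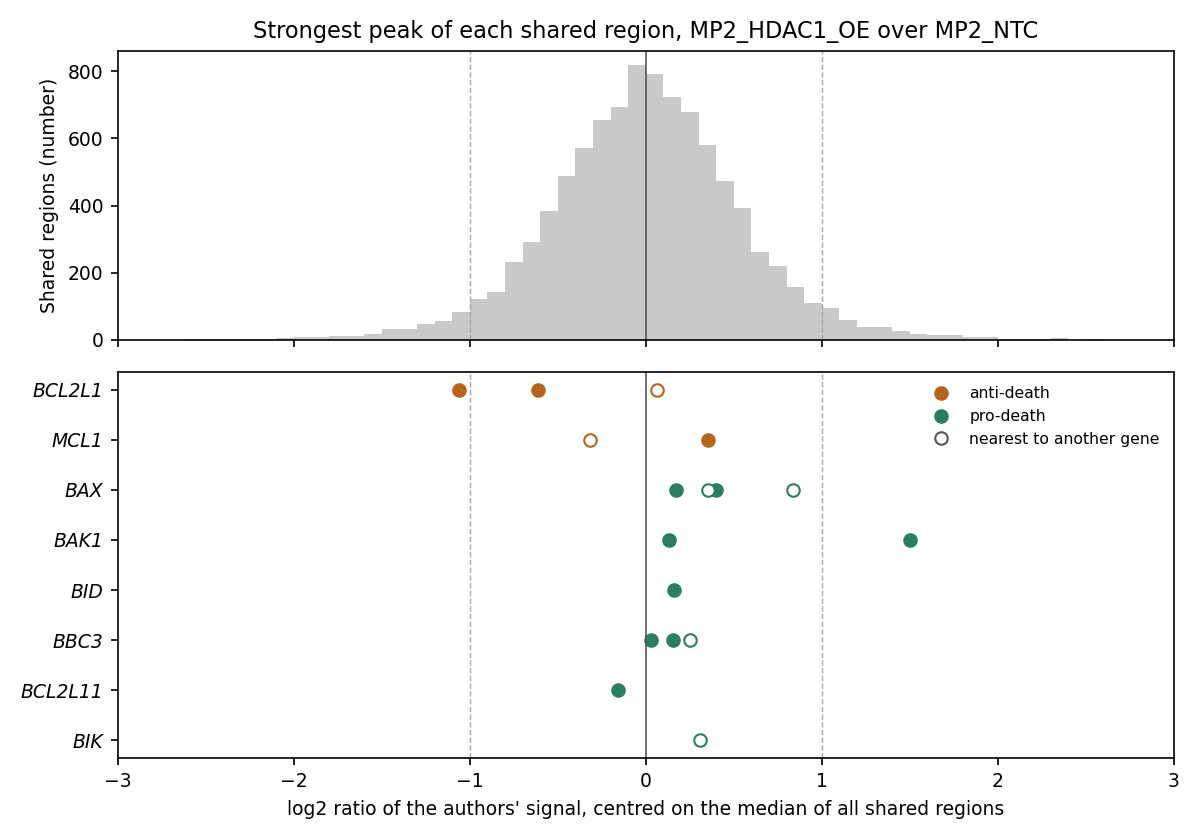
Centred log2 ratio of the authors' signal, MP2_HDAC1_OE over MP2_NTC, for all 9477 shared regions (upper panel, number per bin of width 0.1, with values beyond 3 in the last bin) and for the 17 shared regions of the members (lower panel, anti-death in brown, pro-death in green). Open points are regions nearest to another gene, and dashed lines mark a 2-fold difference. The lowest point, of *BCL2L1*, is at -1.06 and the highest, of *BAK1*, is at 1.50, and the others lie between -0.61 and 0.84.

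Several regions in the windows belong to neighbours by position. With only the 22 regions that overlapped a member or were nearest to one of its ends, the anti-death members kept 9 regions (4 unique to MP2_HDAC1_OE, 2 unique to MP2_NTC and 3 shared) and the pro-death members 13 (2, 3 and 8). The median log2 ratio was then -0.61 over 3 anti-death regions, with 1 above 0, and 0.16 over 8 pro-death regions, with 7 above 0. Both anti-death ratios below 0 were of *BCL2L1*, and the 1 above 0 was of *MCL1*, so the anti-death sign here is that of a single gene.

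In strength, the ranks of both roles were mostly high. The strongest MP2_HDAC1_OE peak ranked at 93.1 for *BCL2L1* and 96.6 for the *MCL1* window, and between 42.7 and 97.7 for the 6 pro-death members with a peak (median 92.2). The strongest MP2_NTC peak ranked at 99.1 and 98.7 for the anti-death genes, and between 25.3 and 93.4 for the pro-death genes (median 88.2). The ranges of the roles overlap in MP2_HDAC1_OE, while in MP2_NTC both anti-death values lie above every pro-death value. The *MCL1* values here are from the region nearest to *ADAMTSL4*, and in the promoter windows the rank of *MCL1* in MP2_NTC was 85.6, below that of *BAX* and *BCL2L11*. Over all coding genes with a peak, the median of this rank was 81.4 in MP2_HDAC1_OE (11764 genes) and 79.4 in MP2_NTC (11561 genes). The summits of the strongest peaks lay within 100 bp of each other in 8 of the members' 17 shared regions, against 59.4% of all shared regions.

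The rest of the family is described mainly in the promoter window. Within 20 kb of the gene, 7 of 13 other BCL2 family genes had a region, against 63.1% of all coding genes. In the promoter window, 6 of the 13 had a region, against 48.6% of all coding genes. Those without one were *BCL2A1*, *BCL2L10*, *BCL2L14*, *BCL2L15*, *BMF*, *HRK* and *BNIP3*, and among these only *BCL2L15* had a region within 20 kb. Shared regions lay in the promoter window of 4 of the 13 genes. For *BNIP3L*, *BCL2L10* and a gene with a shared region, no start was in the promoter table, so both gene ends were used. The unique ones were at *BNIP3L*, a gene of mitophagy, in MP2_HDAC1_OE (signal 50.1, rank 56.7) and at the BH3-only gene *BAD* in MP2_NTC (signal 22.6, rank 11.2).

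At *HDAC1*, the activated gene, the strongest peak of the promoter window had a signal of 91.6 in MP2_HDAC1_OE (rank 93.9) and 46.7 in MP2_NTC (rank 45.2). The promoter window also held 1 region unique to MP2_NTC, and the strongest MP2_NTC peak within 20 kb of the gene had a signal of 69.5 (rank 76.8). The labels call the cells epithelial. Of 5 epithelial markers, *KRT8*, *KRT18* and *KRT19* had a region in the promoter window and *EPCAM* and *CDH1* had none there. No start of *KRT18*, *KRT19*, *EPCAM* or *CDH1* was in the promoter table, so their gene ends were used. *EPCAM* and *CDH1* each had a shared region within 20 kb of the gene, which at *CDH1* ranked at 99.5 in MP2_HDAC1_OE and 95.6 in MP2_NTC. Both mesenchymal markers (*VIM* and *ZEB1*) had a region in the promoter window. The acinar (*PRSS1*, *CPA1*) and leukocyte (*PTPRC*, *CD3E*) markers had none, and of the endothelial markers *CDH5* had one and *PECAM1* none. Gene ends were also used for *CD3E*, *CDH5* and *PECAM1*.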

How the data were processed

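H3K27ac was measured by ChIP-sequencing with 75 bp reads in 2 samples per line, beside 2 controls per line without antibody, in MP2_HDAC1_OE and MP2_NTC. The authors ran the ENCODE pipeline and deposited 1 list of reproducible (IDR) peaks per line, pooled over both samples. The submitters' processing notes name BWA 0.7.12 and hg38, and the peak caller is not given in the sources used here. The deposited signal is the caller's value per peak and the deposited score was not used. Read counts, depth and RNA-sequencing were not analysed here.

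Peaks were merged with an overlap of 1 bp. Gene positions and promoter sequences came from RefSeq tables (GRCh38.p14). Promoter windows used the starts in the promoter table, and both gene ends for 4210 coding genes without one. The lists pool both samples, so results are counts and medians beside the same over all coding genes, with no p-value. The members and gene lists were chosen with earlier results of these data known. All 10 members are named, and of other BCL2 family and apoptosis genes those with a unique region or with no region in the promoter window, as well as neighbours with an end within 2 kb of a region. The family genes with a shared region alone were counted, and some genes of the lists are not reported here by name. Markers and *HDAC1* were fixed in the same list. Alternatives covered overlap, threshold, window and the measure of strength. Scripts ran in Python 3.11.15 (pandas 2.3.3, numpy 2.4.6, matplotlib 3.10.9), and the classing of regions was tested on simulated data.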

Additional observations from a re-analysis of the deposited data

How the results depend on the processing

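No paired analysis was possible because the deposited lists combine the samples of a line, and for the same reason no sample could be left out. The median ratios of both roles kept their sign under the alternatives run, but 6 of the 17 single ratios did not. For summed peaks, *BAX* went from 0.17 to -0.62, *BCL2L1* (at *TPX2*) from 0.06 to -1.11 and *BCL2L11* from -0.16 to 0.11. For the pair of peaks with the largest overlap, *BAX* went from 0.84 to -0.57, *BID* from 0.16 to -1.84 and *BBC3* from 0.25 to -0.02. With the strongest of tied peaks in that pair, a reading chosen after seeing the data, the same number (3) changed sign. Regions unique to MP2_HDAC1_OE (7) became 24 when single peaks had to overlap by 50% of both and 12 with 50 kb either side. Regions unique to MP2_NTC (6) became 11 as single peaks with 1 bp of overlap, 23 with 50%, 10 with 50 kb and 2 in gene bodies alone. Shared regions (17) became 68 as single peaks with 1 bp, 41 with 50%, 11 with 5 kb, 26 with 50 kb, 8 in gene bodies and 11 for regions in or nearest to a member, an alternative chosen after seeing the data. Members with a region unique to MP2_HDAC1_OE (3) became 7 with 50% overlap and 5 with 50 kb, and those with one unique to MP2_NTC (4) became 7 with 50% and 2 in gene bodies. Single peaks are more numerous than merged regions, and narrower or wider windows hold fewer or more of them.

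The median rank of the strongest peak for anti-death members became 92.0 in MP2_HDAC1_OE and 98.3 in MP2_NTC among merged regions, and 92.4 in MP2_NTC in the promoter window and with 5 kb. For pro-death members it became 86.6 and 74.6 in the promoter window and 88.0 and 82.4 among merged regions, in MP2_HDAC1_OE and MP2_NTC respectively, and 90.7 in MP2_HDAC1_OE with 5 kb. As a difference of ranks, after subtracting the median of 1.51 points over all shared regions, the median at shared regions was -3.63 points for anti-death and 8.89 points for pro-death members. The cause of these moves was not tested. With unknown depth, a region missing from a list cannot be told apart from one just below its threshold.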

Other observations

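Among 22 other apoptosis genes, 20 had a region in the promoter window, against 48.6% of all coding genes, and *CASP6* and *FAS* had none. A shared region lay at 15 of them, a region unique to MP2_HDAC1_OE at 7 and one unique to MP2_NTC at 5, against 35.8%, 11.7% and 10.1% of all coding genes. At *DIABLO*, whose protein relieves inhibition of caspases, *BIRC3*, an inhibitor of apoptosis gene, and *CASP9*, the caspase activated by the apoptosome, only MP2_HDAC1_OE had regions in the promoter window. The strongest peaks there ranked at 89.3 for *DIABLO*, 38.5 for *BIRC3* and 91.6 for *CASP9*.

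*CFLAR*, which encodes the caspase-8 inhibitor c-FLIP, had 3 regions unique to MP2_HDAC1_OE, 1 unique to MP2_NTC and 1 shared in the promoter window. *TNFRSF10A*, a death receptor for TRAIL, had 2 unique to MP2_HDAC1_OE and 1 shared. No start of *TNFRSF10A* was in the promoter table, so these counts are over both of its gene ends. *CYCS*, the cytochrome c gene, had 1 region of each line and 0 shared ones. *CASP8*, the initiator caspase of death receptors, had 1 region unique to MP2_NTC beside 4 shared ones.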
